A study of Homo sapiens with 12 samples.

Results

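The genes described here encode the enzymes that build, desaturate and lengthen fatty acids in the cytosol and the endoplasmic reticulum. They are ACLY, ACACA, FASN, SCD, SCD5, FADS1, FADS2, ELOVL1, ELOVL5 and ELOVL6, taken by gene name, and they make up 10 of the 58735 genes measured. Poly(A) RNA of wild-type HepaRG cells, a human hepatic cell line, was sequenced in 12 libraries, 3 for each of 4 groups. Control cells received no fatty acid. Cells of the PA group were given palmitate, which is saturated and here carried deuterium, at 400 µM for 4 h. In PA+OA this palmitate was combined with 200 µM oleate, which is monounsaturated, for 4 h. In PA+BMS, cells had 50 µM BMS-309403 for 24 h, a compound that inhibits the lipid carrier FABP4, and 400 µM of the palmitate for 4 h. Neither oleate nor BMS-309403 was given without palmitate, and the exposure to BMS-309403 was longer than that to the fatty acids. The labels do not call the libraries of a group separate cultures, so p-values measure the spread between these libraries, which may be technical.

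Fatty acid synthesis starts when ATP citrate lyase (ACLY) cleaves citrate to cytosolic acetyl-CoA. Acetyl-CoA carboxylase (ACACA) turns this into malonyl-CoA, and fatty acid synthase (FASN) joins these units into palmitate. Stearoyl-CoA desaturase (SCD) places the first double bond into saturated acyl-CoA and so makes oleate, while FADS1 and FADS2 act on polyunsaturated chains and the ELOVL enzymes lengthen chains. In liver, sterol regulatory element-binding proteins (SREBPs) switch on most of these genes, and unsaturated fatty acids are known to restrain SREBP-1.

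Levels are FPKM, fragment counts scaled to the gene length given with the data and to a factor for each library, so that genes can be set beside each other per length. The reads recovered from the FPKM values numbered 16059128 to 19971190 a library. For 1 read, FPKM times length in bases was 51.37 in control replicate 1 (18908363 reads) and 59.83 in PA replicate 1 (18826443 reads). The library factor was therefore not the recovered total alone. Of the variance between libraries, 54.4% lay on the first principal component, whose gene loadings followed the GC content of the transcripts (Spearman's rho 0.68 across genes). On it, PA+OA replicate 1 lay at 54.6 and PA+BMS replicate 3 at -51.5, with the other 10 libraries between -27.1 and 28.0, so member counts are also given without both. All PA and PA+OA libraries lay at 10.6 or above, and all control and PA+BMS libraries at -5.7 or below. The GC trend thus went with the groups and cannot be told apart from the treatments, and removing it may also remove treatment differences. All 10 hepatocyte markers examined, ALB and HNF4A among them, were under 1 FPKM in every library, so the cells are described here by the name of the line. Of 6 epithelial markers, KRT7, KRT8 and KRT18 reached 1 FPKM in every library and KRT19, EPCAM and SOX9 in none. Their summed level was 872 to 1051 FPKM in control, 1029 to 1286 FPKM in PA, 955 to 1739 FPKM in PA+OA and 372 to 427 FPKM in PA+BMS. FABP4, the named target of BMS-309403, had 4 reads over the 12 libraries together.

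SCD had the highest level of the 10 genes in every group, from a mean of 185 FPKM in PA+OA to 309 FPKM in PA. FASN and ACLY came next, and their ranges overlapped each other in every group. ELOVL5 (mean 49.7 FPKM) lay above ELOVL1 (37.1 FPKM) in control, and also in PA+BMS, whereas ELOVL1 lay above ELOVL5 in PA and PA+OA. In each of the 4 groups FADS1, ACACA, FADS2 and ELOVL6 followed in that order, from a mean of 23.2 FPKM for FADS1 to 2.05 FPKM for ELOVL6 in control. The ranges of ACACA and FADS2 overlapped in PA and in PA+OA, and those of FASN and ELOVL1 overlapped in PA+OA. SCD5, the second stearoyl-CoA desaturase gene of the human genome, was the lowest in each group.

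**Figure D1:**
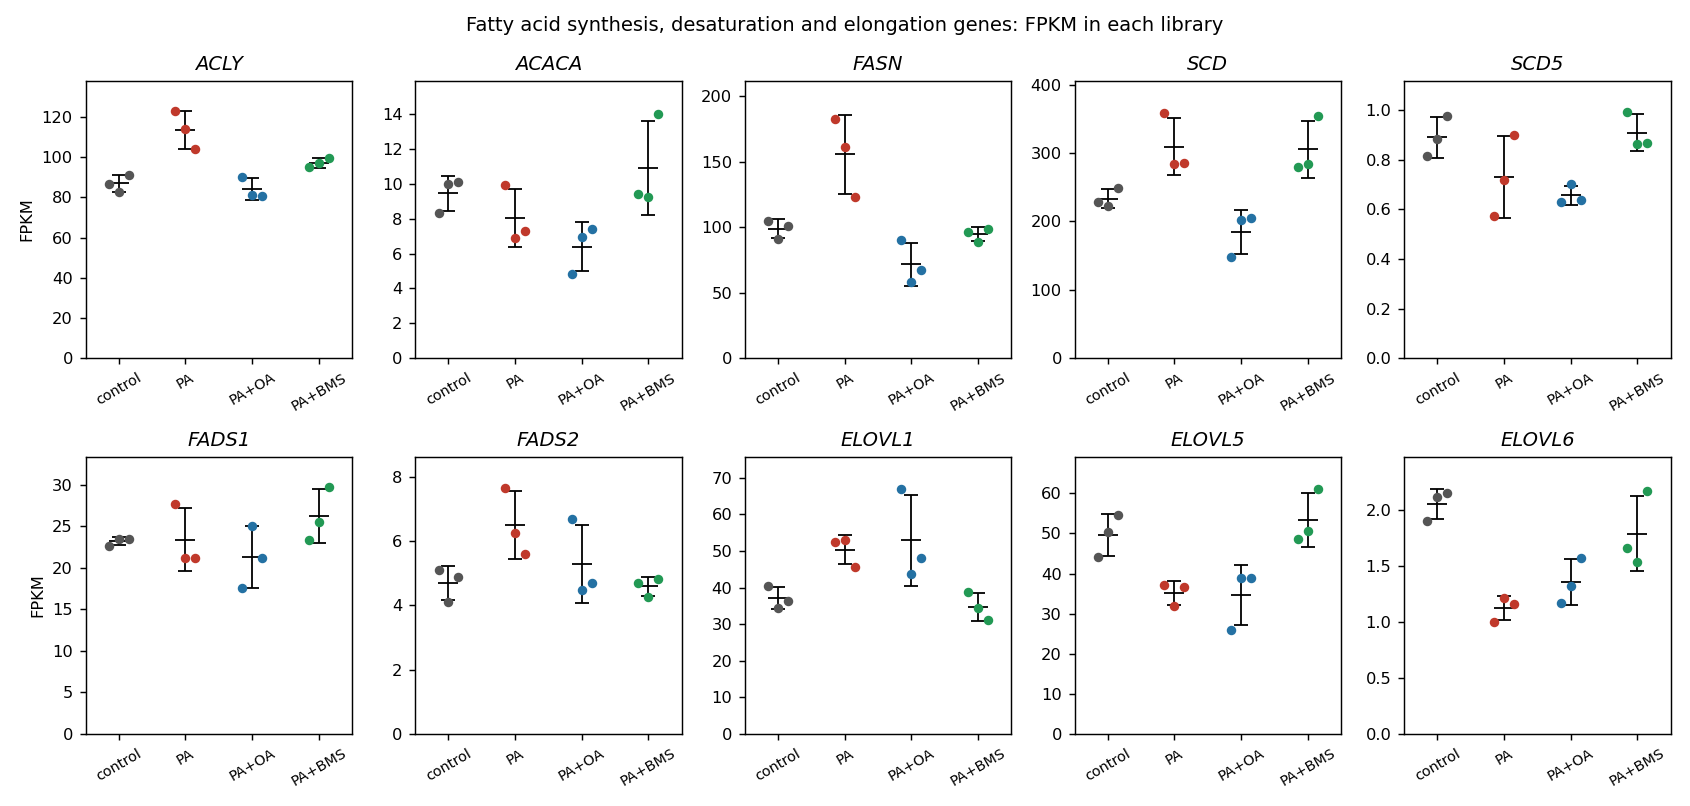
Level of each of the 10 genes in FPKM (vertical axis, from 0, a different scale for each gene) in the 12 libraries, 3 per group; points are libraries in replicate order, and the bars mark the group mean and SD. FASN and ACLY stand highest in the PA group, where FASN reaches 123 to 183 FPKM, and SCD in PA+OA (148 to 205 FPKM) lies below every other group.

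Differences were tested with limma on log2(FPKM + 1), over the 11856 genes that reached 1 FPKM in at least 3 libraries, with Benjamini-Hochberg adjustment over all of them and a threshold of 0.05. A log2 change on this scale understates the change of genes with low levels. SCD5 did not pass this filter, so 9 of the 10 genes were tested. With palmitate, ACLY and FASN rose and ELOVL5 and ELOVL6 fell, which is 2 and 2 of 9, where 12.8% of all tested genes rose and 14.8% fell. When oleate was added to palmitate, FASN, SCD and ACLY fell, 3 of 9, while 3.91% of all tested genes fell and 4.01% rose, and the other 6 members were not called. With BMS-309403 beside palmitate, FASN, FADS2 and ELOVL1 fell and ELOVL5 and ELOVL6 rose, 3 and 2 of 9, where 29.4% of all tested genes fell and 25.2% rose, shares near those of the members. The median log2 change of the 9 genes was 0.38, -0.26 and -0.02 in these comparisons, in that order, beside 0.03, -0.00 and -0.04 over all tested genes. PA serves as the reference of the last 2 comparisons and as the treated group of the first, so these are not independent of each other. With 3 libraries a group, groups without overlap were common. Of all tested genes, 31.3% lay higher and 29.3% lower in PA than in control with no overlap. These shares were 13.3% and 11.6% for PA+OA against PA, and 32.8% and 36.7% for PA+BMS against PA.

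ACLY (ENSG00000131473, GRCh38 chromosome 17, 41866908 to 41930542, minus strand) read 86.8, 82.7 and 91.3 FPKM in control replicates 1 to 3 and 123, 114 and 104 FPKM in PA. It read 90.4, 81.3 and 80.7 FPKM in PA+OA and 94.9, 97.2 and 99.7 FPKM in PA+BMS. Every PA library lay above every library of the other 3 groups. ACLY rose with palmitate by 0.38 on the log2 scale (SE 0.11, adjusted p = 0.0249) and fell by 0.43 (SE 0.11, adjusted p = 0.0303) when oleate was added, to a mean of 84.1 FPKM beside 86.9 FPKM in control. With BMS-309403 its difference from PA was -0.22 (adjusted p = 0.0958), which was not called. The groups did not overlap, as for the 36.7% of all tested genes that lay lower in that way. The rise was not called without control replicate 2, control replicate 3, PA replicate 1 or PA replicate 2 (adjusted p up to 0.105), and the fall with oleate was called in 6 of 12 fits that left out 1 library. It was lost without replicate 1 or 2 of PA, replicate 2 or 3 of PA+OA, or replicate 1 or 2 of PA+BMS (adjusted p up to 0.139).

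ACACA (ENSG00000278540, chromosome 17, 37084988 to 37406818, minus strand), which makes the malonyl-CoA that FASN uses, had overlapping groups with palmitate, with oleate and with BMS-309403. Its values were 8.31, 9.98 and 10.1 FPKM in control, 9.92, 6.88 and 7.29 FPKM in PA, 4.82, 6.95 and 7.43 FPKM in PA+OA, and 9.40, 9.27 and 14.0 FPKM in PA+BMS. Its PA libraries overlapped control and PA+OA, and the lowest and the highest value came from PA+OA replicate 1 and PA+BMS replicate 3. The difference between PA and control was -0.22 (95% interval -0.63 to 0.19, adjusted p = 0.356), and that between PA+OA and PA was -0.29 (-0.70 to 0.12, adjusted p = 0.443). ACACA was higher in PA+BMS than in PA+OA by 0.68 (SE 0.19, adjusted p = 0.0139), a call that was lost without PA+OA replicate 1 (adjusted p = 0.0529) or PA+BMS replicate 3 (adjusted p = 0.0597).

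FASN (ENSG00000169710, chromosome 17, 82078333 to 82098332, minus strand) read 105, 90.9 and 101 FPKM in control and 183, 161 and 123 FPKM in PA. It read 90.0, 57.9 and 67.5 FPKM in PA+OA and 96.6, 88.6 and 98.6 FPKM in PA+BMS. All 3 PA libraries were above all 9 others, and all 3 PA+OA libraries were below all 3 controls. FASN rose with palmitate by 0.63 (SE 0.18, adjusted p = 0.0252), from a mean of 99.3 to 155 FPKM. It fell by 1.11 (SE 0.18, adjusted p = 0.00281) when oleate was added, to 71.8 FPKM, and was called in all 12 fits that left out 1 library (log2 change -1.28 to -0.97, adjusted p 0.000596 to 0.0170). It fell by 0.69 (SE 0.18, adjusted p = 0.00988) with BMS-309403, to 94.6 FPKM, again called in all 12 such fits. The rise with palmitate was less stable and was not called without control replicate 2, control replicate 3, PA replicate 1 or PA replicate 2 (adjusted p up to 0.103). The FPKM ratio of FASN to ACACA, taken within each library, was 10.6 ± 1.86 (SD, n = 3) in control, 19.6 ± 3.41 in PA and 8.95 ± 1.70 in PA+BMS. In PA+OA it was 18.7, 8.34 and 9.08, replicate 1 standing apart.

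SCD (ENSG00000099194, chromosome 10, 100347124 to 100364834, plus strand) read 228, 223 and 249 FPKM in control and 358, 284 and 286 FPKM in PA. It read 148, 202 and 205 FPKM in PA+OA and 279, 284 and 354 FPKM in PA+BMS. The PA+OA libraries lay below every library of the other groups, and the PA and PA+BMS libraries both lay above control and overlapped each other. SCD fell by 0.75 (SE 0.16, adjusted p = 0.0149) when oleate was added to palmitate, from 309 to 185 FPKM. This call was lost without PA replicate 1 (adjusted p = 0.0825). Against control, SCD was higher in PA by 0.40 (SE 0.16, adjusted p = 0.0805), which did not pass. It did pass without PA+OA replicate 1 (adjusted p = 0.0274) and without both libraries that stand apart (adjusted p = 0.00732). These libraries belong to neither PA nor control, so leaving them out moved the spread shared by all groups and not the change. Without PA+OA replicate 1, 23.9% of all tested genes rose with palmitate and 21.1% fell, beside 12.8% and 14.8% with all libraries. The difference between PA+BMS and PA was -0.02 (95% interval -0.37 to 0.34, adjusted p = 0.939), with a mean of 306 FPKM in PA+BMS, and the interval leaves room for a difference in either direction. SCD was higher in PA+BMS than in PA+OA by 0.73 (SE 0.16, adjusted p = 0.00627), and this held in all 12 fits that left out 1 library. SCD5 (ENSG00000145284, chromosome 4, 82629539 to 82798857, minus strand), had 41 to 88 reads a library and read 0.572 to 0.995 FPKM over the 12, with means (± SD, n = 3) of 0.892 ± 0.0828 for control, 0.730 ± 0.165 for PA, 0.657 ± 0.0393 for PA+OA and 0.909 ± 0.0751 for PA+BMS. The library ranges of control and PA overlapped for SCD5, as did those of PA and PA+OA.

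SCD and ACLY were among the genes that fell together when oleate was added, and the bases just upstream of their start sites are shown because CCAAT boxes, bound by the factor NF-Y, accompany SREBP sites in many lipogenic promoters. The sequences are from RefSeq (GRCh38.p14), 250 bases upstream of the start and read 5′ to 3′ on the gene's strand. The SCD stretch is chr10:100346983-100347232 on the plus strand, and that of the first of the ACLY starts is chr17:41919023-41919272 on the minus strand. These RefSeq starts differ from those of the gene spans given above. The SCD stretch lies partly, and the ACLY stretch wholly, inside its gene span. Capitals mark the motif CCAAT, or ATTGG where it lies on the other strand.
SCD: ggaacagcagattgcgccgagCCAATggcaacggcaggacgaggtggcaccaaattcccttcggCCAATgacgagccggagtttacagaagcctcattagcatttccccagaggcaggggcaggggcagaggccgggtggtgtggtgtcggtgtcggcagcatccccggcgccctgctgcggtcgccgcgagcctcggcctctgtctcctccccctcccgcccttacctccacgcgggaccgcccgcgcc
ACLY: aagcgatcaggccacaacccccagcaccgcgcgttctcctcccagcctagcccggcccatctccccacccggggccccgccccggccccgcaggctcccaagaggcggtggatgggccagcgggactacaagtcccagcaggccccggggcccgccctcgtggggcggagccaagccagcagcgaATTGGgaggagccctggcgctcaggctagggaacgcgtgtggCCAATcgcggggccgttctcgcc
Both hold 2 CCAAT boxes, which begin 229 and 186 bases before the start in SCD and 65 and 23 bases before it in ACLY. ELOVL5 and start 3 of ACACA also had 2 upstream, while starts 1 and 2 of ACACA had 0 and 1. Neither ELOVL5 nor ACACA was called when oleate was added. Which start these cells use, and any part of the boxes in the fall with oleate, were not tested. CCAAT was searched on both strands in windows of 250 bases before to 50 after a start. It was found in at least 1 window for 7 of the 9 genes that could be matched by symbol, some with several starts. Of all 35116 RefSeq promoters 34.6% hold it, a share by promoter that cannot be set directly beside a count by gene. The E-box CACGTG was found for ELOVL5 alone among the matched genes (7.26% of all promoters), and the sterol regulatory element TCACNCCAC for none (1.13%), which says only that these letters are not in these windows. A match describes the letters and does not show binding. FASN was not matched.

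FADS1 and FADS2 insert the double bonds that turn dietary linoleic and alpha-linolenic acid into longer polyunsaturated fatty acids, FADS2 at the first step and FADS1 at a later one. The 2 genes lie on opposite strands of chromosome 11, FADS1 (ENSG00000149485) from 61799625 to 61829318 and FADS2 (ENSG00000134824) from 61792980 to 61867354, so that the whole of FADS1 lies within the annotated span of FADS2. FEN1, a nuclease gene with reads, also overlaps FADS2, and the strand setting of the read counting is not given in the sources used here, so reads of these genes may be shared. FADS1 read 22.6, 23.4 and 23.5 FPKM in control, 27.7, 21.2 and 21.1 FPKM in PA, 17.5, 25.0 and 21.2 FPKM in PA+OA, and 23.3, 25.5 and 29.7 FPKM in PA+BMS. Its groups overlapped in all 6 comparisons and none was called, with a difference between PA and control of -0.00 (95% interval -0.32 to 0.32). FADS2 read 5.11, 4.11 and 4.89 FPKM in control, 7.67, 6.27 and 5.59 FPKM in PA, 6.68, 4.48 and 4.71 FPKM in PA+OA, and 4.71, 4.26 and 4.82 FPKM in PA+BMS. The 3 PA libraries of FADS2 lay above all control and all PA+BMS libraries. FADS2 was higher in PA than in control by 0.39 (SE 0.15, adjusted p = 0.0610), which missed the threshold but passed without PA+OA replicate 1 (adjusted p = 0.0176) and without both libraries that stand apart (adjusted p = 0.0119). As for SCD, those libraries are in neither group, and larger shares of all tested genes were called in those fits. FADS2 fell by 0.42 (SE 0.15, adjusted p = 0.0309) with BMS-309403, a call lost without PA replicate 1, PA replicate 2 or any 1 of the 3 PA+BMS libraries (adjusted p up to 0.120).

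Of the 3 elongase genes, ELOVL5 and ELOVL6 fell with palmitate and ELOVL1 did not pass the test. ELOVL1 (ENSG00000066322, chromosome 1, 43363397 to 43368074, minus strand) acts on saturated and monounsaturated very long chains. It read 40.5, 34.5 and 36.4 FPKM in control, 52.5, 52.9 and 45.7 FPKM in PA, 67.1, 43.7 and 48.1 FPKM in PA+OA, and 38.7, 34.5 and 31.0 FPKM in PA+BMS. The palmitate groups without BMS-309403 lay above the control and PA+BMS groups with no overlap. ELOVL1 was higher in PA than in control by 0.43 (SE 0.16, adjusted p = 0.0568), just short of the threshold. It passed without PA+OA replicate 1 (adjusted p = 0.00937), without PA+BMS replicate 3 (adjusted p = 0.0482) and without both (adjusted p = 0.00353). Again those libraries are in neither group, and larger shares of all tested genes were called in those fits. ELOVL1 fell by 0.53 (SE 0.16, adjusted p = 0.0165) with BMS-309403, and that fall was not called without PA replicate 1, PA replicate 2 or PA+BMS replicate 3 (adjusted p up to 0.0620).

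ELOVL5 (ENSG00000012660, chromosome 6, 53267398 to 53349179, minus strand), which lengthens polyunsaturated chains, had its lower levels in PA and PA+OA. Its values were 44.0, 50.3 and 54.6 FPKM in control, 37.1, 31.8 and 36.6 FPKM in PA, 25.9, 39.0 and 39.0 FPKM in PA+OA, and 48.6, 50.6 and 61.1 FPKM in PA+BMS. Every PA and PA+OA library lay below every control and PA+BMS library. ELOVL5 fell by 0.48 (SE 0.16, adjusted p = 0.0462) with palmitate and rose by 0.59 (SE 0.16, adjusted p = 0.0135) when BMS-309403 was present. The fall was called in 5 of the 12 fits that left out 1 library (adjusted p up to 0.154), being lost without control replicate 2 or 3, any 1 of the PA libraries, or PA+BMS replicate 1 or 2. The rise was called in 10 of 12 and lost without PA replicate 2 (adjusted p = 0.0553) or PA+BMS replicate 3 (adjusted p = 0.0542). The FPKM ratio of ELOVL5 to ELOVL1 within a library was 1.35 ± 0.228 (SD, n = 3) for control, 0.702 ± 0.0995 for PA, 0.696 ± 0.272 for PA+OA and 1.56 ± 0.367 for PA+BMS.

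ELOVL6 (ENSG00000170522, chromosome 4, 110045846 to 110199199, minus strand), which lengthens the palmitate that FASN makes to stearate, had the lowest level of the genes tested. It read 1.90, 2.11 and 2.15 FPKM in control, 1.0, 1.21 and 1.16 FPKM in PA, 1.17, 1.32 and 1.57 FPKM in PA+OA, and 1.66, 1.53 and 2.17 FPKM in PA+BMS. The control and PA+BMS libraries all lay above the PA libraries. With palmitate, ELOVL6 fell by 0.52 (SE 0.12, adjusted p = 0.0113), a call lost without control replicate 2 (adjusted p = 0.0528). It rose by 0.39 (SE 0.12, adjusted p = 0.0184) with BMS-309403, a call lost without PA replicate 1 (adjusted p = 0.0605) or PA+BMS replicate 3 (adjusted p = 0.0678), and its sign turned to -0.10 (adjusted p = 0.438) with the trend in GC content and length removed. No elongase gene was called between PA+OA and PA, where the differences were 0.05 for ELOVL1 (95% interval -0.29 to 0.39), -0.04 for ELOVL5 (-0.40 to 0.32) and 0.15 for ELOVL6 (-0.11 to 0.40).

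The 3 other comparisons set the endpoints side by side. Between PA+OA and control, ELOVL1 rose by 0.48 (adjusted p = 0.0311) and ELOVL5 and ELOVL6 fell by 0.53 and 0.38 (adjusted p = 0.0269 for each), which is 1 and 2 of 9, where 17.5% of all tested genes rose and 18.8% fell. Without PA+OA replicate 1 these calls were lost for ELOVL1 (adjusted p = 0.0798), ELOVL5 (adjusted p = 0.0700) and ELOVL6 (adjusted p = 0.0747), as they were without control replicate 2 or control replicate 3 (adjusted p up to 0.110), and that of ELOVL6 also without PA+OA replicate 2 (adjusted p = 0.0604). With the trend in GC content and length removed, ELOVL1 (adjusted p = 0.241) and ELOVL6 (adjusted p = 0.628) were not called in this comparison, while ELOVL5 (-0.38, adjusted p = 0.0250) and FASN (-0.59, adjusted p = 0.00174) were. FASN and ACACA were lower in PA+OA than in control (-0.48 and -0.51), and both had an adjusted p of 0.0502. Their groups did not overlap, as for the 26.3% of all tested genes that lay lower in that way. FASN and ACACA were called with the replicate block (FASN adjusted p = 0.0232, ACACA adjusted p = 0.0395), and also with library totals set equal and by voom on the recovered reads. That block spans all 4 groups, though the replicate numbers were not taken to pair samples over all groups, so the blocked values do not settle these calls. Between PA+BMS and control, limma called 0 of 9 members, with 1 at an unadjusted p under 0.05 and 0 by voom on the recovered reads, while 4.77% of all tested genes rose and 6.25% fell. SCD had the smallest p there, being higher in PA+BMS than in control by 0.38 (SE 0.16, adjusted p = 0.160) with no overlap, as were 16.7% of all tested genes. Between PA+BMS and PA+OA, ACACA, SCD and ELOVL5 rose and ELOVL1 fell, 3 and 1 of 9, beside 23.1% and 26.4% of all tested genes. ELOVL5 differed by 0.63 (SE 0.16, adjusted p = 0.0114) and ELOVL1 by -0.58 (SE 0.16, adjusted p = 0.0128) in that comparison, and the ELOVL1 call was lost without PA+BMS replicate 3 (adjusted p = 0.0519), with the GC trend removed (adjusted p = 0.442) and with library totals set equal (adjusted p = 0.0571). Without both libraries that stand apart, ACACA (adjusted p = 0.126), ELOVL1 (adjusted p = 0.0681) and ELOVL5 (adjusted p = 0.0578) were not called, nor were they with only the 2 groups compared in the fit (adjusted p = 0.0545, 0.0639 and 0.0580).

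**Figure D2:**
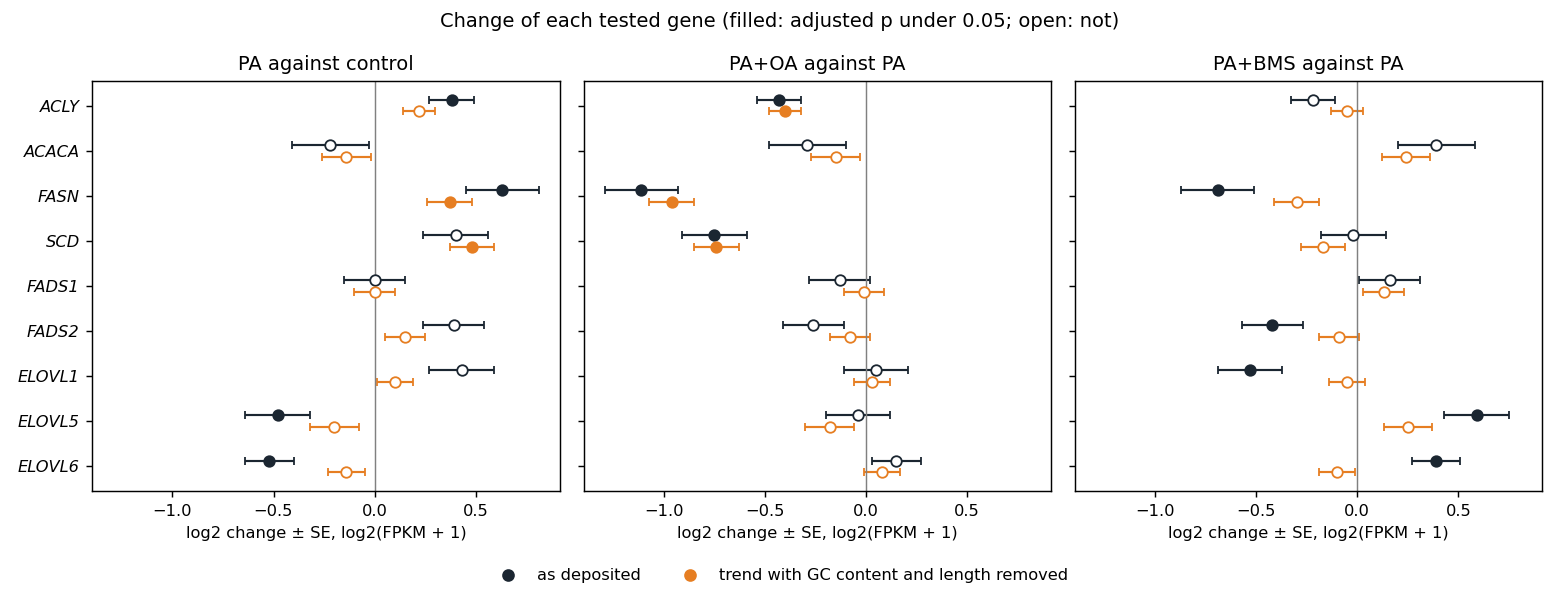
Log2 change of the 9 tested genes on the log2(FPKM + 1) scale with its SE (horizontal axis) in 3 comparisons, 3 libraries a group. Dark points are the values as deposited. Orange points are those after the trend with GC content and gene length was removed, and filled points passed an adjusted p of 0.05. FASN, SCD and ACLY stay filled under both treatments where oleate was added, while with BMS-309403 none of the orange points is filled.

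GC content of the transcripts was set beside the changes with palmitate. FASN, with 65.3% GC, had the largest positive difference with palmitate among the 9, and ELOVL6 (41.2%) and ELOVL5 (41.7%) had the largest negative ones. SCD (47.1%), at 0.40, lay above ACACA (48.7%) and FADS1 (50.1%), so the order was not strict. With BMS-309403, ELOVL5 and ELOVL6 were higher while FADS2 (58.6%), ELOVL1 (55.4%) and FASN were lower. When the trend with GC content and length over all tested genes was removed from each library, FASN (0.37, adjusted p = 0.0400) and SCD (0.48, adjusted p = 0.0157) were the 2 members called with palmitate. In that fit 6.85% of all tested genes rose with palmitate and 9.60% fell. ACLY (0.22, adjusted p = 0.0711), ELOVL5 (-0.20, adjusted p = 0.253) and ELOVL6 (-0.14, adjusted p = 0.307) were then not called. With BMS-309403, 0 of 9 members were called after that removal, FASN being nearest at -0.30 (adjusted p = 0.0684). The falls with oleate were called with the trend removed too, at -0.96 for FASN (adjusted p = 0.000264), -0.74 for SCD (adjusted p = 0.00151) and -0.40 for ACLY (adjusted p = 0.00578). Of all tested genes 6.69% fell with oleate in that fit. The GC content of ACLY is 52.2%.

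**Figure D3:**
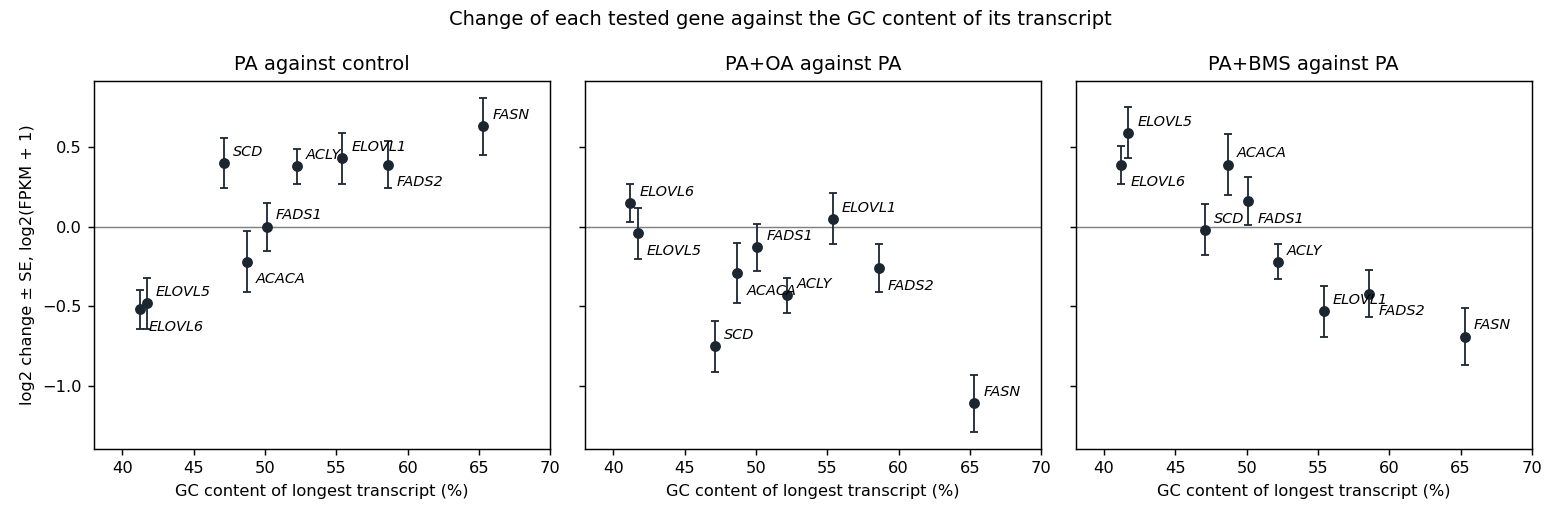
Log2 change with its SE on the log2(FPKM + 1) scale (vertical axis) against the GC content of the longest transcript in percent (horizontal axis) for the 9 tested genes in 3 comparisons, 3 libraries a group. In PA against control ELOVL6 at 41.2% GC is the lowest point and FASN at 65.3% the highest, in PA+BMS against PA FASN is the lowest, and in PA+OA against PA the lowest points are FASN and SCD, at 65.3% and 47.1%.

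Without both libraries that stand apart, 5 members rose and 2 fell with palmitate, where 29.9% of all tested genes rose and 26.8% fell in that fit. The scaling of the libraries also bears on these values. With the library totals set equal, the median log2 change of all tested genes moved from 0.03 to -0.19 with palmitate and from -0.04 to 0.25 with BMS-309403, and stayed near 0 (0.03) where oleate was added. On that scale FASN still rose with palmitate (0.35, adjusted p = 0.0419) and fell with BMS-309403 (-0.32, adjusted p = 0.0400), whereas ACLY with palmitate (0.11, adjusted p = 0.408) and ELOVL1 (-0.15, adjusted p = 0.210) and FADS2 (-0.09, adjusted p = 0.480) with BMS-309403 were not called. SCD with oleate was -0.71 on that scale (adjusted p = 0.0677). Calls gained with BMS-309403 on that scale were ACACA (0.73, adjusted p = 0.0217) and FADS1 (0.53, adjusted p = 0.0377), and voom also called ACACA (0.70, adjusted p = 0.0225). By voom on the recovered reads, ACLY with palmitate (adjusted p = 0.107) and ELOVL1 (adjusted p = 0.0849) and FADS2 (adjusted p = 0.158) with BMS-309403 were not called either. With no filter on low values the lost calls were FASN (adjusted p = 0.0728) and ELOVL5 (adjusted p = 0.118) with palmitate and FADS2 (adjusted p = 0.0810) with BMS-309403. With only the 2 groups compared in the fit, SCD (adjusted p = 0.0727) and ACLY (adjusted p = 0.151) were not called with oleate. Marker levels moved with the treatments as well. Beside the keratins given above, the summed level of 3 endothelial markers was 1.36 to 1.82 FPKM in control and 1.06 to 1.35 in PA. It was 0.287 to 0.454 in PA+OA and 0.343 to 0.459 in PA+BMS, with 2 of the 3 under 1 FPKM in every library. That of 3 leukocyte markers was 1.51 to 2.20 FPKM in control and 1.63 to 2.10 in PA. It was 1.77 to 1.91 in PA+OA and 0.539 to 0.607 in PA+BMS, again with 2 of 3 under 1 FPKM throughout. For 5 stellate cell and fibroblast markers it was 14.5 to 15.7 FPKM in control and 16.6 to 17.6 in PA. In PA+OA it was 14.7 to 17.0 and in PA+BMS 12.2 to 13. For 4 adipocyte markers it was 6.47 to 8.21 FPKM in control and 4.12 to 4.30 in PA. In PA+OA it was 2.97 to 5.79 and in PA+BMS 4.73 to 7.00, with 3 of 4 under 1 FPKM throughout. These sums do not show that such cells were present in this cell line. The part of these markers in the results was not tested. In bulk RNA, fewer cells of a type and less RNA per cell cannot be told apart.

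Other genes of the pathway were read from lists grouped by function. Of the genes that act in the supply or removal of acetyl-CoA, malonyl-CoA and NADPH, 9 of 10 were tested. With palmitate 6 rose and 1 fell (median log2 change 0.46), beside 12.8% and 14.8% of all tested genes. Among those that rose was MLYCD, which breaks down malonyl-CoA, from 0.697 to 1.31 FPKM (adjusted p = 0.0101). ACSS2, which makes acetyl-CoA from acetate, rose from 8.51 ± 0.861 to 14.7 ± 2.56 FPKM (SD, n = 3; adjusted p = 0.0127). IDH1, a cytosolic source of NADPH, fell from 40.4 ± 2.64 to 27.2 ± 1.78 FPKM (adjusted p = 0.00496). After the GC trend was removed 1 of the 9 rose and 1 fell, beside 6.85% and 9.60% of all tested genes. Without PA replicate 2 the count that rose was 0 by limma, where 3.36% of all tested genes rose. When oleate was added, 0 of the 9 were called. With BMS-309403 2 of them rose and 2 fell, beside 25.2% and 29.4% of all tested genes. ME1, which makes NADPH from malate, rose with BMS-309403 from 14.9 to 27.2 FPKM (adjusted p = 0.00380). SLC25A1, the mitochondrial citrate carrier, fell with it from 134 to 78.5 FPKM (adjusted p = 0.0125).

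Of 15 further desaturase, elongase and redox partner genes, 9 were tested. With palmitate 1 rose and 3 fell, beside 12.8% and 14.8% of all tested genes. When oleate was added, 0 of the 9 were called, where 4.01% of all tested genes rose and 3.91% fell. With BMS-309403 3 rose and 3 fell, beside 25.2% and 29.4%, shares near those of the list. HACD2 and HACD3, dehydratases of the elongation cycle, fell with palmitate and rose with BMS-309403. TECR, a reductase of that cycle named here after its values were seen, went the other way, by 0.63 with palmitate (adjusted p = 0.0480) and -0.73 with BMS-309403 (adjusted p = 0.0157). HACD2 read 23.6 ± 3.02 FPKM in control, 12.4 ± 2.03 in PA (log2 change -0.88, adjusted p = 0.00605) and 24.7 ± 3.89 in PA+BMS (0.95 against PA, adjusted p = 0.00373; SD, n = 3). After the GC trend was removed, 1 of the list fell with palmitate, and 1 rose and 3 fell with BMS-309403. CYB5R3, the reductase that passes electrons towards the desaturases, fell from 51.2 to 31.9 FPKM with BMS-309403 (adjusted p = 0.00993). In the separate mitochondrial synthesis pathway, 6 of 8 genes were tested. With BMS-309403 0 of the 6 rose and 3 fell, beside 25.2% and 29.4% of all tested genes. Those that fell were MCAT (21.4 to 12.1 FPKM), MECR (8.26 to 4.83 FPKM) and HSD17B8 (36.4 to 19.3 FPKM). With the GC trend removed, 1 of the 6 fell, where 1421 of all 11848 genes tested in that fit fell.

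Changes were also read in genes that control lipogenesis and in sterol genes under SREBP. INSIG1, which holds SREBP in the endoplasmic reticulum and is itself an SREBP target, fell from 60.7 to 18.1 FPKM with oleate (log2 change -1.70, adjusted p = 4.24e-06) and rose from 60.7 to 93.4 FPKM with BMS-309403 (0.61, adjusted p = 0.00347). SREBF2, the gene of SREBP-2, fell from 54.6 to 37.6 FPKM with oleate (-0.53, adjusted p = 0.0336). RNF139, of the same list, rose from 10.6 to 17.2 FPKM with oleate (0.64, adjusted p = 0.0201). Of the 19 control genes 1 rose and 2 fell with oleate, beside 4.01% and 3.91% of all tested genes. SREBF1, the gene of SREBP-1 and named here after its values were seen, rose by 0.56 with palmitate (adjusted p = 0.0309) and fell by 0.71 with BMS-309403 (adjusted p = 0.00791). Its difference between PA+OA and PA was -0.24 (adjusted p = 0.491).

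Of the 12 sterol synthesis and uptake genes, all tested, 6 rose and 1 fell with palmitate (median 0.43), 4 fell when oleate was added (median -0.34), and 5 rose and 3 fell with BMS-309403 (median -0.18). Over all tested genes 12.8% rose and 14.8% fell with palmitate, 3.91% fell with oleate, and 25.2% rose and 29.4% fell with BMS-309403. LSS, a sterol cyclase, fell with oleate by 0.59 on the log2 scale (adjusted p = 0.0181). With BMS-309403, IDI1, an isomerase of sterol synthesis, rose from 16.7 to 31.7 FPKM (adjusted p = 0.000922), and STARD4, a sterol carrier, from 1.52 to 3.51 FPKM (adjusted p = 0.00342). DHCR7, a reductase late in the route, rose with palmitate from 44.0 to 76.1 FPKM (adjusted p = 0.00865). After the GC trend was removed, 5 rose with palmitate, 5 fell with oleate, and 5 rose and 1 fell with BMS-309403. Without PA replicate 1 or PA+OA replicate 2, 2 fell with oleate, and without control replicate 2, control replicate 3 or PA replicate 2, 2 rose with palmitate. Of all tested genes 1.82% and 2.24% fell with oleate in these fits, and 2.95%, 3.80% and 3.36% rose with palmitate, in the order named. In the control list, all 19 of which were tested, 8 rose and 2 fell with palmitate. With the GC trend removed 3 rose and 1 fell, beside 6.85% and 9.60% of all tested genes. Without control replicate 2, control replicate 3 or PA replicate 2, 2 rose, beside 2.95%, 3.80% and 3.36% of all tested genes. With BMS-309403, 5 of that list rose and 9 fell (2 and 3 with the GC trend removed), beside 25.2% and 29.4% of all tested genes.

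**Figure D4:**
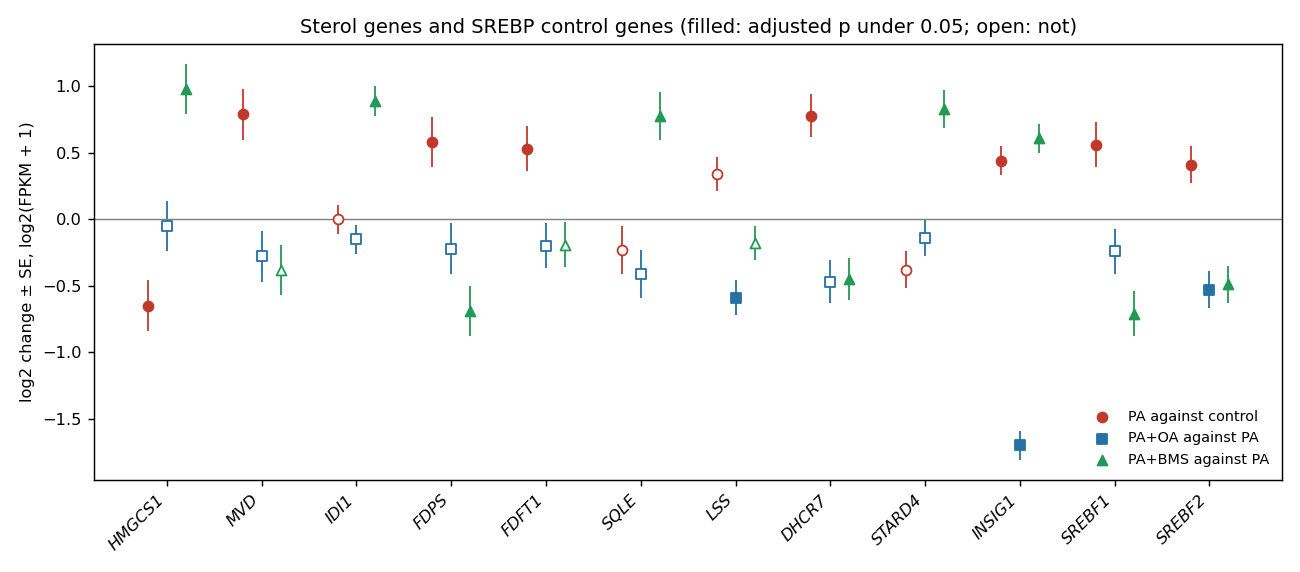
Log2 change with its SE on the log2(FPKM + 1) scale (vertical axis) of 9 of the sterol genes and of INSIG1, SREBF1 and SREBF2 in 3 comparisons, 3 libraries a group; filled symbols passed an adjusted p of 0.05. INSIG1 has the lowest square (-1.70 where oleate was added), and the triangles of IDI1 and STARD4 (BMS-309403) stand above 0.

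The genes whose levels ran most like each member over the 12 libraries were sought among 5955 protein-coding genes by Pearson's r of log2(FPKM + 1), given as a description, since the libraries share the GC trend and the group differences. For ELOVL5 the nearest was NCAPG2 (r 0.991) and for ELOVL1 it was ATP6V0D1 (0.991). FADS2 was nearest to ATG9A (0.983), ACLY to SAMD4B (0.978), FASN to ENG (0.978), ACACA to TNPO3 (0.973), ELOVL6 to USP12 (0.972) and FADS1 to DHTKD1 (0.941). SCD ran closest to NUP188 (0.982), IGF2R (0.979) and OAS3 (0.976). Among the 9 members themselves, r was 0.90 between ACLY and FASN, 0.90 between ACACA and ELOVL5, and -0.97 between ELOVL1 and ELOVL5.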

How the data were processed

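The authors deposited one table of FPKM values per gene for the 12 libraries. Per the labels' protocols, poly(A) libraries were read as 150 bp pairs. Per the submitters' processing notes, CASAVA, HISAT2 2.0.5 and featureCounts 1.5.0-p3 were used, with no role given. The build, annotation, strand setting and FPKM step were not given in the sources used here. All gene coordinates matched GENCODE 29 (GRCh38), from which transcript GC content was taken. Low FPKM values were whole multiples of 1 read (100% of those checked, tolerance 0.001), which gave reads per library.

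Values were tested as log2(FPKM + 1) with limma 3.58.1 in R 4.3.3, with 1 coefficient per group, 8 residual degrees of freedom, a trended empirical Bayes variance, two-sided p-values and Benjamini-Hochberg adjustment, separately for the 6 comparisons. The test was run first on simulated data. Deviations from the group means correlated over 0.1 in all 3 same-numbered pairs of control and PA+OA (0.49, 0.27 and 0.16) and in no other comparison, so blocked values stand beside that comparison; the labels give no shared batch. All 10 members are reported. From each list of related genes the counts and the up to 3 called genes with the smallest p in 3 comparisons are named, except for some items not reported here. Likeness used genes with a mean of at least 5 FPKM. The members and lists were chosen with earlier results of these data known. The alternatives were a pseudocount of 0.1, no filter, median-of-ratios scaling, equal library totals, the 2 compared groups only, a replicate block, each library left out, both libraries that stand apart left out, a spline trend (5 degrees of freedom) in GC content and length removed, and voom on the recovered reads.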

Additional observations from a re-analysis of the deposited data

How the results depend on the processing

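Counts of the 9 tested members called moved as follows. PA against control (4 called) gave 2 with no filter, 7 with the 2 groups only, 2 with the GC and length trend removed and 7 without both libraries that stand apart. Of all tested genes 2.33% rose and 2.88% fell with no filter, and 26.0% and 23.8% with the 2 groups only. With the trend removed 6.85% rose and 9.60% fell, and without both libraries 29.9% and 26.8%. Without these changes 12.8% rose and 14.8% fell. PA+OA against PA (3) gave 1 with the 2 groups only. There 2.29% of all tested genes rose and 1.63% fell, beside 4.01% and 3.91% without that change. PA+BMS against PA (5) gave 0 with the trend removed. PA+OA against control (3) gave 0 with no filter, 6 with totals set equal, 0 with the 2 groups only, 5 with the replicate block and 6 by voom. In these fits, in that order, 6.07%, 10.2%, 12.1%, 22.0% and 12.9% of all tested genes rose. The shares that fell were 5.37%, 27.4%, 14.2%, 22.2% and 24.2%. Without these changes 17.5% rose and 18.8% fell. PA+BMS against PA+OA (4) gave 8 with totals set equal, SCD5 among them (0.35, adjusted p = 0.0328) as it then passed the filter, 1 with the 2 groups only, 8 by voom and 2 without both libraries. In these fits, in that order, 38.9%, 7.28%, 33.9% and 9.01% of all tested genes rose. The shares that fell were 12.4%, 10.1%, 16.7% and 12.6%. Without these changes 23.1% rose and 26.4% fell. Leaving out 1 library, the counts ran from 0 to 7, 1 to 4, 1 to 6, 0 to 5 and 2 to 5 in these comparisons, in that order, and were 0 throughout for PA+BMS against control. Shares of all tested genes moved as well. For PA against control, 2.95% rose and 3.75% fell without control replicate 2, and 23.9% and 21.1% without PA+OA replicate 1.

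No called change reversed except ELOVL6, PA+BMS against PA, which was -0.10 with the trend removed. Among changes that were not called, the sign turned as follows. For PA+OA against PA, ELOVL1 was -0.13 without both libraries, and ELOVL5 was 0.00 by voom and 0.15 without both. For PA+BMS against PA, ACLY was 0.15 with totals equal and 0.05 by voom, and SCD was 0.04 with median-of-ratios scaling, 0.36 with totals equal and 0.26 by voom. For PA+OA against control, FADS2 was -0.07 with totals equal and -0.02 without both. For PA+BMS against control, ACACA was -0.01 without both, FASN 0.03 with totals equal, 0.07 with the trend removed and 0.02 by voom, FADS2 0.00 with median-of-ratios scaling, 0.06 with totals equal, 0.05 with the trend removed and 0.06 by voom, and ELOVL1 0.00 with totals equal and 0.05 with the trend removed. For PA+BMS against PA+OA, FADS2 was 0.13 with totals equal and 0.04 by voom, and ELOVL6 was -0.18 with the trend removed. Leaving out 1 library, ranges that crossed 0 were -0.01 to 0.26 for ACACA and -0.10 to 0.03 for FADS2 (PA+BMS against control), -0.13 to 0.17 for ELOVL1 and -0.14 to 0.15 for ELOVL5 (PA+OA against PA), -0.13 to 0.06 for FADS1 (PA against control), -0.02 to 0.22 for FADS2 (PA+OA against control) and -0.13 to 0.09 for SCD (PA+BMS against PA). The cause was not tested.

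Over all tested genes, PA against control had 3272 calls, 1948 with the trend removed, 1599 with no filter, 5906 with the 2 groups only and 6723 without both libraries. PA+OA against PA had 938, and 1583, 812, 464 and 3016 in that order. PA+BMS against PA had 6463 and 2750 with the trend removed. PA+BMS against control had 1306, 2279 with the trend removed and 2159 without both, and PA+BMS against PA+OA had 5878, 2066 with the 2 groups only and 2567 without both. Leaving out 1 library gave as few as 795 calls for PA against control (without control replicate 2) and 473 for PA+OA against PA (without PA replicate 1). Same-numbered libraries correlated at -0.28 to 0.56 over 18 pairs, 9 of them over 0.1, so the numbers were not taken to pair samples over all groups. With the replicate block 6, 3, 5, 5, 0 and 5 members were called. Of all tested genes 19.9%, 4.87%, 27.4%, 22.0%, 6.11% and 25.5% rose with the block, in the same order. The shares that fell were 19.3%, 4.74%, 32.3%, 22.2%, 8.27% and 29.8%. SCD5, with 41 to 88 reads a library, was below the filter.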
